A study of Mus musculus with 8 samples.

Results

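Small nucleolar RNAs (snoRNAs) and the genes that carry them were followed in the striatum of 8 male C57BL/6 mice, each measured on its own Affymetrix array of whole transcripts. The members were the probe sets whose platform annotation gave exactly 1 gene symbol beginning with Snord, Snora or Scarna, together with the probe sets of 8 named host genes. The rule found 67 probe sets of 57 genes, out of 21789 probe sets with 1 symbol. Of these, 33 belong to box C/D snoRNAs (Snord), 23 to box H/ACA snoRNAs (Snora), 4 to RNAs of the Cajal body (Scarna) and 7 to host genes, namely Gas5 with 4, Snhg11 with 2 and Snhg5 with 1. The hosts Snhg1, Snhg3, Snhg6, Snhg8 and Snhg12 had no probe set with a single symbol. Another 41 probe sets that carry a snoRNA or host symbol among several, 24 of them for Snord116, stayed outside the rule.

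The acupoint group received MPTP and was needled at GB34, 3 mm deep, and at LR3, 1 mm deep, in 14 sessions 48 h apart. The non-acupoint group received MPTP and was needled at both hips, 3 mm deep, on the same schedule. The MPTP group received MPTP without needling, and the control group received saline. MPTP, a neurotoxin that damages the dopamine axons reaching the striatum and serves as a mouse model of parkinsonism, was given at 20 mg/kg every 24 h for 4 weeks to mice that were 6 weeks old at the start, and each of the 4 groups had 2 mice. Values are on the log2 scale, so a difference of 1 is a doubling. With 2 arrays a group, it is their number that sets how precise a value can be. The comparisons ask what MPTP did to these RNAs, whether needling moved them, and whether the needling site mattered.

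Box C/D snoRNAs guide the methylation of ribosomal RNA by fibrillarin, box H/ACA snoRNAs guide its pseudouridylation by dyskerin, and the RNAs of the Cajal body direct the same modifications on spliceosomal RNAs. In vertebrates most of them are not transcribed on their own: they lie in introns of a host gene and are cut out when the host transcript is spliced. Many hosts encode ribosomal or translation proteins, while Gas5 and the Snhg genes yield spliced transcripts that carry no long reading frame, and that of Gas5 is degraded when it is translated. Of the 54 snoRNA symbols, 53 lay within the span of another gene in RefSeq (GRCm38.p6, which was used for names and neighbours), 21 of them in a ribosomal protein gene. Snord118, a box C/D RNA needed for maturation of the large ribosomal subunit RNAs, was the exception. The arrays cannot tell the mature snoRNA from the host's intron or precursor, and short RNAs are known to be recovered poorly on silica columns of the kind used here.

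The promoters of the host genes are shown because many hosts share an initiator that starts in a run of C and T bases, which links them to the genes of the translation machinery. The sequences are those of RefSeq (GRCm38.p6) from 60 bases before the annotated start to the base numbered 50 from it, read 5′ to 3′ on the gene's strand. Capitals mark a TATA-like element (TATAAA, the letters TTTATA, or else TATATA, searched on the gene's strand) in the 50 bases before the start, and a run of at least 6 C or T bases within 20 bases of the start.
Gas5, chr1:161035106-161035215, plus strand: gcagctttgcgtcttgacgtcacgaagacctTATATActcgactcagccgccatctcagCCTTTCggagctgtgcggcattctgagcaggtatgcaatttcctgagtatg
Snhg1, chr19:8723427-8723536, plus strand: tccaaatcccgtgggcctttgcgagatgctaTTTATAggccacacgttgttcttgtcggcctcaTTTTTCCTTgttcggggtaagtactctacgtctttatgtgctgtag
Snhg5, chr9:88522848-88522957, minus strand: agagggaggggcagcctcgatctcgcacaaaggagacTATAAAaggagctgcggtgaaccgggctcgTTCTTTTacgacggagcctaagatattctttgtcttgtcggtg
Snhg12, chr4:132308618-132308727, plus strand: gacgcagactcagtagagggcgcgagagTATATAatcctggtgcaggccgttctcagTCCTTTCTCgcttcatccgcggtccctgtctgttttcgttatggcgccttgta
Snhg11, chr2:158375653-158375762, plus strand: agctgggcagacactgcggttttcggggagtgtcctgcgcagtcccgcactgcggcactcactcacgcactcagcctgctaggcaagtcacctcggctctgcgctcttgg
Gas5, Snhg1, Snhg5 and Snhg12 held both elements at these starts. Snhg11 held neither in the stretches searched, and neither did the windows of Snhg3 and of a second, upstream start of Gas5, which are not printed. The Snhg3 window does hold TATAAA, but after its annotated start, outside the stretch searched. Among all 32851 windows of the table, 4.475% held the TATA-like letters, 37.466% the run and 1.802% both. Among 70 windows of ribosomal protein genes the shares were 4.286%, 61.429% and 4.286%.

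The arrays differed in markers of brain tissue before any snoRNA was considered. The 6 measured markers of striatal neurons all exceeded the intensity mark of 5.25, the lower quartile of probe set means, on every array, but their mean stood at -2.24 relative to the controls in MPTP mouse 1, against -0.63 to 0.34 on the other 5 treated arrays. That mouse also had high markers of thalamus, septum and pallidum (1.66), as did non-acupoint mouse 2 (1.26), against -0.69 to 0.71 on the other 4 treated arrays. Choroid plexus markers were 2.38 to 3.03 above the controls in acupoint mouse 1, both non-acupoint mice and MPTP mouse 1, and lay at 0.18 in acupoint mouse 2 and -0.25 in MPTP mouse 2. Ependymal markers were lower in both MPTP mice (-0.46 and -0.30). The MPTP arrays enter 4 of the comparisons below, and values without MPTP mouse 1 are given beside the results that it moves most.

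Most box C/D snoRNAs had lower means in the MPTP striatum than in saline controls. Box H/ACA snoRNAs had a median closer to the control level, though several of them were lower too. Most host probe sets stood close to their control level, with 2 of Gas5 further below it. The lowest snoRNAs were Snord61, Snord47 and Scarna17, at -1.21, -1.17 and -1.01 relative to the controls, and Snora44 stood highest, at 1.80 above them. No probe set of any kind passed the adjusted threshold: limma called 0 of 21789, or 0%, at an adjusted p under 0.05. At an unadjusted p under 0.05 it found 3 snoRNA probe sets higher and 13 lower of 60, against 2.04% higher and 1.84% lower over all probe sets. Without MPTP mouse 2, when MPTP mouse 1 alone stands for the group, limma called 1102 probe sets, among them 7 members: Gas5 probe set 10351037, Snord47, Snord49b, Snord61 and both probe sets of Scarna17 lower, and Snord37 higher. Without MPTP mouse 1 it called 0.

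Of the 33 box C/D probe sets, 25 had a lower mean in MPTP mice, with a median change of -0.20 and a range of -1.21 to 0.53. Of the 23 box H/ACA probe sets, 13 were lower, with a median of -0.05 and a range of -0.55 to 1.80. The 4 Cajal body probe sets fell on both sides, with 2 higher and 2 lower. All 60 together had a median of -0.15, where the 21789 probe sets had 0.01 and were lower in 46% of cases. Both MPTP mice lay below both controls for 27 of the 60, or 45%, and above them for 4, against 12.6% and 17.3% of all probe sets. By class, 17 of 33 box C/D and 8 of 23 box H/ACA probe sets lay below both controls, and 1 and 2 above. At an unadjusted p under 0.05 by limma, 6 box C/D and 5 box H/ACA probe sets were lower and 1 of each higher. The shares over all probe sets were 1.84% lower and 2.04% higher. The 60 share host genes, and 3 pairs among them carry identical values, so they are not independent measurements.

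The shift was present in each MPTP mouse. Relative to the control mean, MPTP mouse 1 had a box C/D median of -0.28 and MPTP mouse 2 one of -0.14, with 27 of 33 probe sets below it in each. The box C/D medians were -0.02 and 0.03 in acupoint mice and -0.03 and -0.14 in non-acupoint mice. Box H/ACA medians were -0.14 and 0.00 in MPTP mice, and those over all probe sets 0.03 and 0.01. In MPTP mouse 2, 40 of the 60 snoRNA probe sets lay below the control mean, against 10491 of all 21789 probe sets. Its striatal markers stood at 0.34 and its markers of thalamus, septum and pallidum at -0.69. The count was not particular to MPTP mice without needling. It was 38 and 40 of the 60 in non-acupoint mice 1 and 2, with snoRNA medians of -0.03 and -0.13, and 31 and 32 in acupoint mice. Without MPTP mouse 1 the snoRNA median in MPTP against control was -0.11. Ependymal markers were lower in both MPTP mice, but stood at 0.16 and 0.45 in non-acupoint mice 1 and 2. In acupoint mice 1 and 2 they stood at 0.13 and -0.15. The part of these markers was not tested. In bulk tissue, fewer cells of a type and less RNA per cell cannot be told apart.

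**Figure D1:**
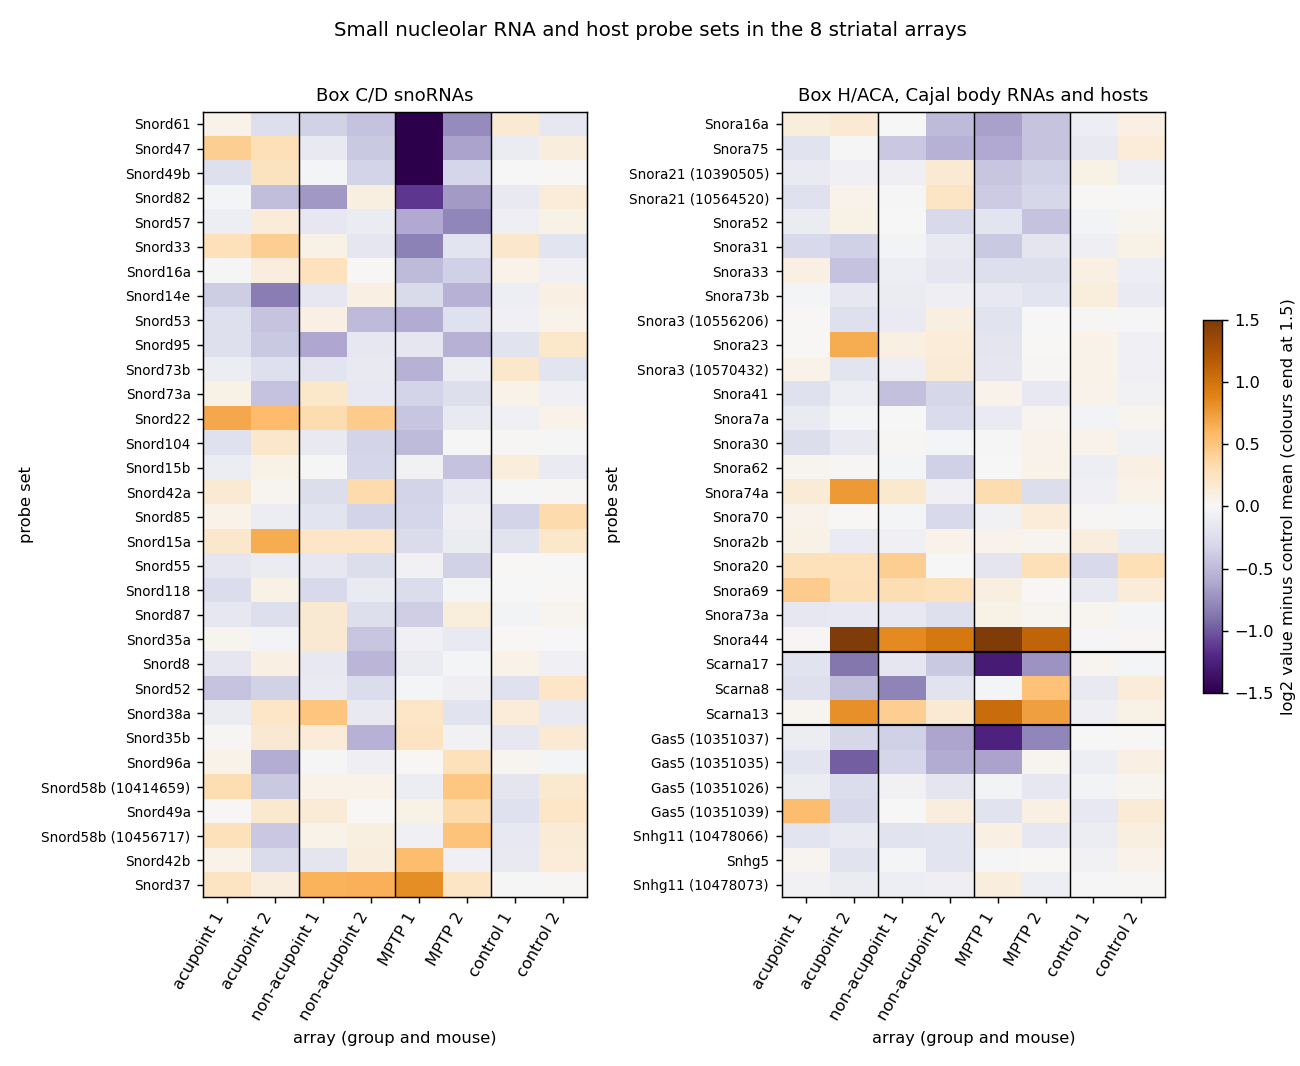
Log2 value minus the mean of the 2 controls for each of the 64 distinct member probe sets (rows) on the 8 arrays (columns, by group and mouse), with colours ending at 1.5 in either direction. Rows are sorted within a class by the mean of the MPTP arrays, and vertical lines part the groups. The box C/D rows are mostly below 0 in MPTP mice 1 and 2, while Snora44 and Scarna13 stand above 0 in both MPTP mice.

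**Figure D2:**
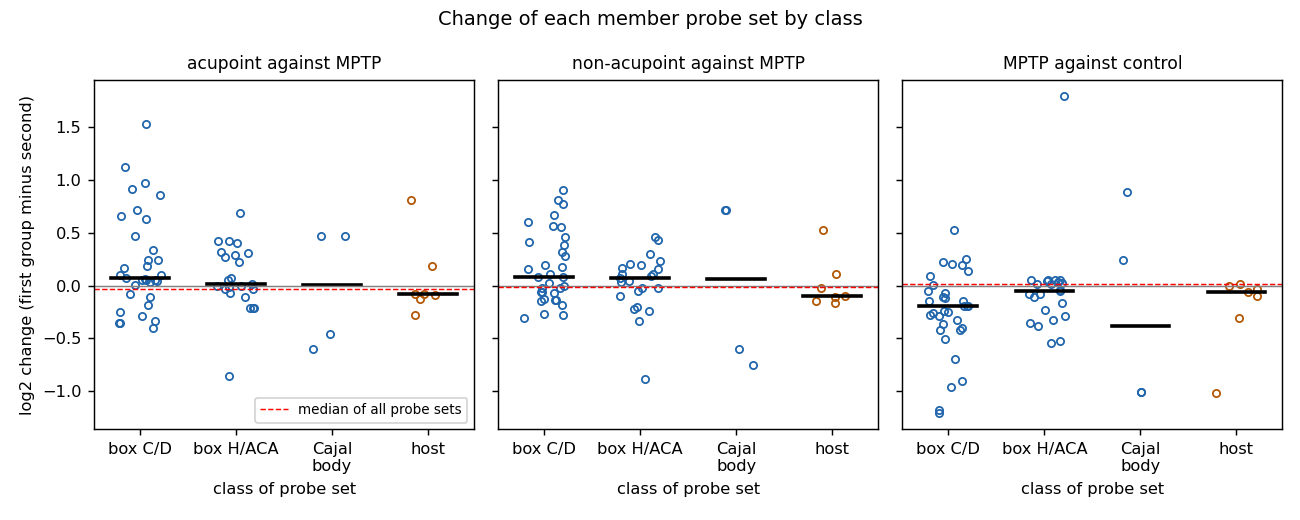
Log2 change of each member probe set (points) by class in 3 comparisons, with the class median as a black bar and the median of all 21789 probe sets as a dashed line. In MPTP against control, 25 of 33 box C/D points lie below 0, and 6 of 7 host points do, the lowest being Gas5 probe sets at -1.02 and -0.30.

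Among the box C/D members, Snord57, which lies in the gene of the box C/D core protein Nop56, had log2 values of 9.22 and 9.04 in MPTP mice, against 9.75 and 9.91 in controls. Both MPTP mice were below both controls, by a similar amount in each, and the mean was 0.617 times the control level (change -0.70, SE 0.13, unadjusted p = 8e-04, adjusted p = 0.96 by limma). Without MPTP mouse 1 the change was -0.79. Snord61, in the gene of the splicing regulator Rbmx on the X chromosome, stood at 3.81 and 4.70 in MPTP mice, against 5.63 and 5.31 in controls. The groups did not overlap and the lower MPTP value was that of mouse 1 (-1.21, SE 0.28, and -0.77 without that mouse, a change of over 1.5 times).

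Snord47, which lies in Gas5, had 4.36 and 5.43 in MPTP mice and 5.96 and 6.18 in controls. Its change was -1.17 (SE 0.31), and -0.64 without MPTP mouse 1, less by over 1.5 times. Snord49b stood at 6.34 and 7.62 in MPTP mice, against 7.93 and 7.94 in controls, so that mouse 1 supplied most of the difference (-0.96, SE 0.38, and -0.32 without it). Snord82, in the gene of nucleolin (Ncl), a major protein of the nucleolus, had 3.04 and 3.48 in MPTP mice and 4.02 and 4.31 in controls (-0.91, SE 0.29, and -0.69 without MPTP mouse 1). Snord16a, in Rpl4, differed less but similarly in both mice, with 6.30 and 6.45 in MPTP mice and 6.87 and 6.73 in controls (-0.42, SE 0.13, and -0.35 without MPTP mouse 1). The groups did not overlap for any of these 4.

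Snord37, in the gene of the translation elongation factor Eef2, ran the other way. It had 4.10 and 3.50 in MPTP mice and 3.26 and 3.30 in controls, with the higher value in mouse 1 (0.53, SE 0.19, and 0.22 without that mouse). Its values lay below the intensity mark of 5.25 on all arrays. Snord61 and Snord82 were also under that mark by their mean, as were 23 of the 60 snoRNA probe sets, where a log2 difference is measured with little signal. These 23 include Snora75, Snora31, Snora41, Snora69, Scarna8 and Snord52, named below.

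The box H/ACA members parted from each other within a single host. Snora44 and Snora16a both lie in Snhg12. Snora44 had 8.25 and 6.87 in MPTP mice, against 5.74 and 5.78 in controls, and both MPTP mice were above both controls, although they differed from each other by more than 1 log2 unit (change 1.80, 3.48 times the control level, SE 0.61, unadjusted p = 0.021, adjusted p = 0.96 by limma). Snora16a had 7.97 and 8.19 in MPTP mice, against 8.54 and 8.71 in controls, and both MPTP mice were below both controls (-0.55, SE 0.18). Without MPTP mouse 1 the change of Snora44 was 1.11, less by over 1.5 times, and that of Snora16a -0.44.

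Snora75, which shares the host Ncl with Snord82, had 4.41 and 4.56 in MPTP mice and 4.87 and 5.14 in controls (-0.52, SE 0.14, and -0.44 without MPTP mouse 1). Both probe sets of Snora21, in Rpl23, were lower as well: 5.21 and 5.30 in MPTP mice against 5.72 and 5.56 in controls for the first, and 5.23 and 5.31 in MPTP mice against 5.63 and 5.62 in controls for the second. The groups did not overlap for any of the 3, and the changes of Snora21 were -0.39 (SE 0.12) and -0.35 (SE 0.14), and -0.34 and -0.32 without MPTP mouse 1. Snora73a and Snora73b, long H/ACA RNAs of Snhg3 that are needed for cleavage of the ribosomal RNA precursor more than for its modification, stood near the controls, at 0.06 (SE 0.10) and -0.17 (SE 0.12).

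Of the Cajal body RNAs, Scarna13, in Snhg10, had 8.31 and 7.99 in MPTP mice, against 7.18 and 7.34 in controls (0.89, SE 0.26, and 0.73 without MPTP mouse 1). Scarna17 had 8.78 and 9.35 in MPTP mice, against 10.10 and 10.04 in controls (-1.01, SE 0.26, and -0.72 without MPTP mouse 1). Scarna17 has 2 probe sets with identical values, which count as 1 measurement. Both genes had non-overlapping groups in opposite directions, and Scarna8, in Haus6, overlapped (0.24, SE 0.25, and -0.03 without MPTP mouse 2).

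**Figure D3:**
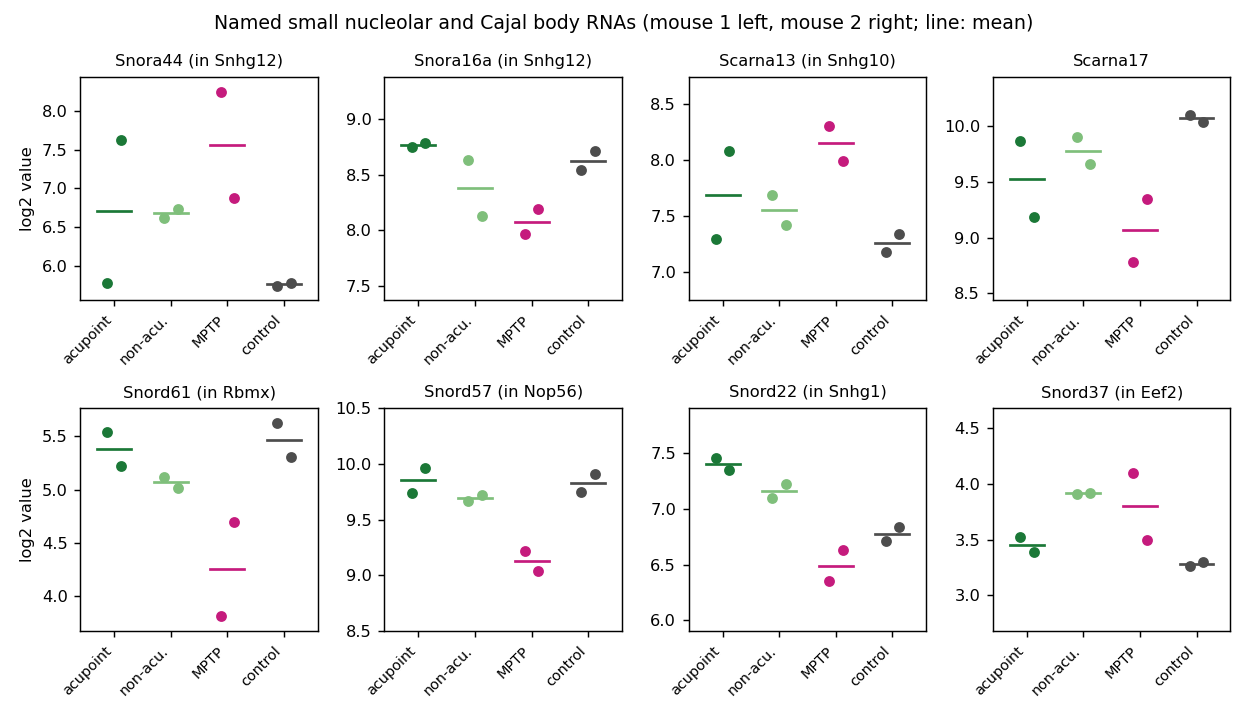
Log2 values of 8 named snoRNAs and Cajal body RNAs in acupoint, non-acupoint, MPTP and control mice, mouse 1 left and mouse 2 right within a group, with the group mean as a line; axes start at different levels and each spans at least 2 log2 units. Snora44 reaches 7.63 in acupoint mouse 2 and 8.25 in MPTP mouse 1, and lies at 5.74 and 5.78 in controls.

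Among the host genes, the 4 probe sets of Gas5 disagreed. Probe set 10351037 had 7.40 and 7.85 in MPTP mice, against 8.64 and 8.64 in controls, with both MPTP mice far below controls that barely differed (-1.02, 0.495 times the control level, SE 0.18, unadjusted p = 0.00057, adjusted p = 0.96 by limma). Probe set 10351026 overlapped between groups, at 11.07 and 10.96 in MPTP mice and 11.07 and 11.15 in controls (-0.10, SE 0.11). Probe set 10351035 had 5.63 and 6.30 in MPTP mice and 6.18 and 6.35 in controls, and probe set 10351039 had 3.31 and 3.60 in MPTP mice and 3.37 and 3.66 in controls, and the groups overlapped in both. Which exons or introns of Gas5 each probe set reads was not available in the annotation used here, so no level was given to Gas5 as a whole. Snord47, which lies in the same gene, was lower as well. Without MPTP mouse 1, probe set 10351037 stood at -0.79 and Snord47 at -0.64.

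The other hosts differed little. Snhg5 had 7.12 and 7.14 in MPTP mice and 7.08 and 7.18 in controls. The Snhg11 probe set 10478066 had 7.51 and 7.26 in MPTP mice and 7.32 and 7.52 in controls, and probe set 10478073 had 6.70 and 6.50 in MPTP mice and 6.57 and 6.61 in controls. All 3 overlapped, with changes from -0.03 to 0.01 and standard errors of 0.11 to 0.13. The 7 host probe sets had a median change of -0.06, with 1 at an unadjusted p under 0.05.

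**Figure D4:**
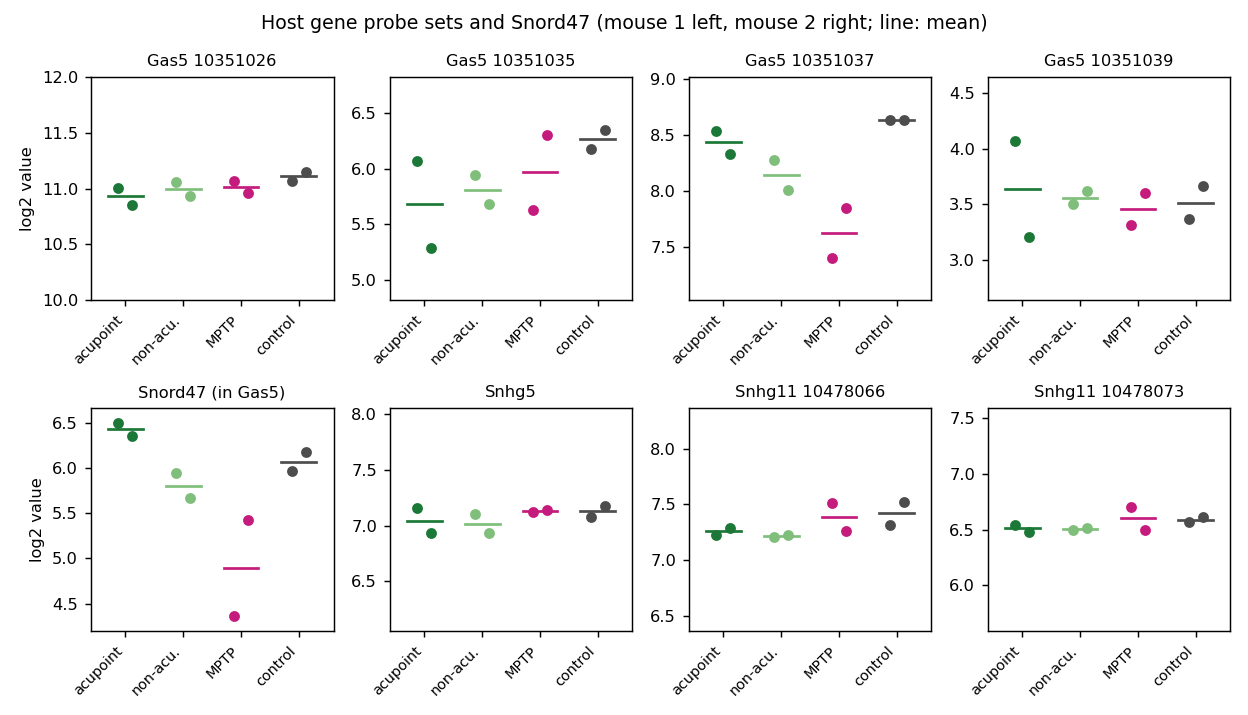
Log2 values of the 7 host gene probe sets and of Snord47 in acupoint, non-acupoint, MPTP and control mice, mouse 1 left and mouse 2 right within a group, with the group mean as a line; axes start at different levels and each spans at least 2 log2 units. Of the 4 Gas5 probe sets, 10351037 is the one whose MPTP values (7.40 and 7.85) lie clear of its control values (8.64 and 8.64).

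For 32 snoRNA probe sets the gene that holds them was also measured, through 26 host genes, taking the probe set with the highest mean of each. Their median change in MPTP mice was -0.24, while that of the hosts was -0.0045, with all hosts between -0.29 and 0.16. Beyond 0.5 in either direction were 6 of the snoRNA probe sets and 0 of the hosts. That count rests on the choice of probe set for Gas5, which entered with 10351026 at -0.10 (SE 0.11), beside Snord47 at -1.17, where probe set 10351037 stood at -1.02 (SE 0.18). Nop56 stood at 0.09 (SE 0.11) beside Snord57 at -0.70, Rbmx at -0.09 (SE 0.16) beside Snord61 at -1.21, and Eef2 at 0.14 (SE 0.11) beside Snord37 at 0.53. Ncl stood at -0.29 (SE 0.16) beside Snord82 at -0.91 and Snora75 at -0.52. Standard errors were 0.13 to 0.31 for these 6 snoRNAs and 0.11 to 0.16 for their hosts. Mean signal was 3.61 for Snord37 and 11.99 for Eef2, and 5.04 for Snord61 and 9.32 for Rbmx. It was 5.80 for Snord47 and 11.01 for Gas5, and 9.63 for Snord57 and 9.79 for Nop56. Snord82 and Snora75 had 3.80 and 4.73, and Ncl 10.42. The cut of 0.5 makes no allowance for such gaps in signal and spread. Pairs were set by span without strand, and the host probe set with the highest mean need not lie at the snoRNA's own locus. Snord87 entered with Mcmdc2, since Snhg6, which also holds it, had no probe set with a single symbol.

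**Figure D5:**
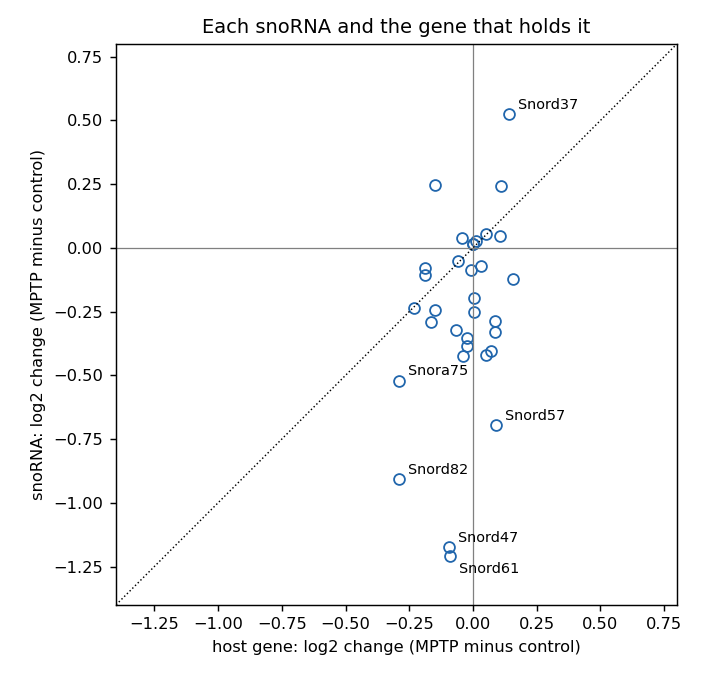
Log2 change in MPTP against control of each of 32 snoRNA probe sets (vertical axis) against that of the gene whose span holds it (horizontal axis, the host's probe set with the highest mean); the dotted line marks equal change. The hosts lie between -0.29 and 0.16, and the 6 snoRNAs beyond 0.5 are labelled.

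When acupoint mice were set against MPTP mice, several of the snoRNAs that were low in the MPTP mice had higher means in the acupoint mice, among them Snord47, Snord61 and Snord57, and Snord22 stood highest of all groups in the acupoint mice. This comparison starts from the same 2 MPTP arrays as the one above, so members picked for low MPTP values there would be higher here by the choice alone. Limma called 0 of 21789 probe sets (0%). At an unadjusted p under 0.05, 12 snoRNA probe sets were higher and 1 lower of 60, against 1.21% and 2.68% of all probe sets. Without MPTP mouse 2 it called 969 probe sets, among them 7 members, with Snord47, Snord61, Snord49b, Snord33, Snord22 and Gas5 probe set 10351037 higher and Snord37 lower, and without MPTP mouse 1 it called 0.

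Of the 60 snoRNA probe sets, 38 had a higher mean in acupoint mice, with a median change of 0.06, where all probe sets had -0.04 and were higher in 40.8% of cases. The box C/D class had 24 of 33 higher (median 0.07) and the box H/ACA class 12 of 23 (median 0.02). Both acupoint mice lay above both MPTP mice for 17 of the 60 and below them for 5, against 9.14% and 19.5% of all probe sets. Without MPTP mouse 1 the snoRNA median was 0.03, with 13 of the 67 members at an unadjusted p under 0.05, against 1127 of all 21789 probe sets.

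Snord22, in Snhg1 and needed for maturation of the small ribosomal subunit RNA, had 7.46 and 7.35 in acupoint mice, against 6.35 and 6.63 in MPTP mice. The groups did not overlap, and the mean was 1.88 times the MPTP level (change 0.91, SE 0.13, unadjusted p = 0.00019, adjusted p = 0.92 by limma, and 0.77 without MPTP mouse 1). Its acupoint values also lay above its control values of 6.71 and 6.84. Snord47 had 6.50 and 6.35 in acupoint mice, against 4.36 and 5.43 in MPTP mice (1.53, SE 0.31, and 0.99 without MPTP mouse 1, a difference of over 1.5 times). Both acupoint mice were above both MPTP mice.

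Snord61 had 5.54 and 5.22 in acupoint mice, against 3.81 and 4.70 in MPTP mice (1.12, SE 0.28, and 0.68 without MPTP mouse 1). Snord57 had 9.74 and 9.96 in acupoint mice, against 9.22 and 9.04 in MPTP mice (0.72, SE 0.13, and 0.81 without MPTP mouse 1). Snord33, in Rpl13a, had 7.73 and 7.89 in acupoint mice, against 6.64 and 7.27 in MPTP mice (0.86, SE 0.23, and 0.54 without MPTP mouse 1). No overlap was seen for these 3. The acupoint values of Snord61 and Snord57 overlapped the controls, and those of Snord33 lay above them.

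Snora16a had 8.75 and 8.78 in acupoint mice, against 7.97 and 8.19 in MPTP mice (0.68, SE 0.18). Its neighbour in Snhg12, Snora44, separated the acupoint mice from each other: 5.77 in mouse 1, which is at the control level, and 7.63 in mouse 2, which lies between the MPTP values of 8.25 and 6.87. Scarna13 did the same, with 7.29 and 8.08 in acupoint mice and 8.31 and 7.99 in MPTP mice. Scarna17 mirrored them, with 9.87 and 9.19 in acupoint mice and 8.78 and 9.35 in MPTP mice. All 3 groups of values overlapped, and acupoint mouse 2 sided with the MPTP mice in each.

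On the lower side, Scarna8 had 4.36 and 4.11 in acupoint mice, against 4.55 and 5.10 in MPTP mice (-0.60, SE 0.25, and -0.32 without MPTP mouse 2). Snord52 (-0.34, SE 0.15), Snora73a (-0.21, SE 0.10) and Snora30 (-0.21, SE 0.10) also had non-overlapping groups with smaller differences. Of the hosts, Gas5 probe set 10351037 had 8.54 and 8.33 in acupoint mice, against 7.40 and 7.85 in MPTP mice (0.81, SE 0.18, and 0.58 without MPTP mouse 1). The remaining 6 host probe sets overlapped, with changes of -0.28 to 0.19 and a median of -0.08 over all 7.

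In non-acupoint mice, needled at the hips, Snord22, Snord57, Snord16a and Snord61 had higher means than in MPTP mice and Scarna8 a lower one. This comparison shares the MPTP arrays with both comparisons above. Limma called 0 of 21789 probe sets (0%). At an unadjusted p under 0.05, 9 snoRNA probe sets were higher and 3 lower of 60, against 3.06% and 3.42% of all probe sets. Without MPTP mouse 2 it called 410 probe sets, among them 4 members, Snord47, Snord49b, Snord61 and Snord22, all higher, and without MPTP mouse 1 it called 0.

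Of the 60, 35 had a higher mean in non-acupoint mice, with a median of 0.08, where all probe sets had -0.02 and were higher in 46% of cases. Non-overlapping groups numbered 18 higher and 9 lower, against 14.5% and 19% of all probe sets. Without MPTP mouse 1 the median was 0.02, and 8 of the 67 members had an unadjusted p under 0.05, against 2616 of all 21789 probe sets, a similar share. Choroid plexus markers were high in both non-acupoint mice and in MPTP mouse 1, and their part was not tested.

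Snord22 had 7.10 and 7.22 in non-acupoint mice, against 6.35 and 6.63 in MPTP mice (0.67, SE 0.13, unadjusted p = 0.0013, adjusted p = 0.59 by limma). Snord57 had 9.67 and 9.72 in non-acupoint mice, against 9.22 and 9.04 in MPTP mice (0.57, SE 0.13), and Snord16a had 7.06 and 6.80 in non-acupoint mice, against 6.30 and 6.45 in MPTP mice (0.56, SE 0.13). Snord61 had 5.12 and 5.02 in non-acupoint mice, against 3.81 and 4.70 in MPTP mice (0.81, SE 0.28, and 0.37 without MPTP mouse 1, less than the full value by over 1.5 times). In all 4, both non-acupoint mice were above both MPTP mice.

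Both Snora21 probe sets were higher, with 5.56 and 5.80 in non-acupoint mice against 5.21 and 5.30 in MPTP mice for the first (0.43, SE 0.12) and a change of 0.46 (SE 0.14) for the second. Scarna8 had 3.78 and 4.38 in non-acupoint mice, against 4.55 and 5.10 in MPTP mice (-0.75, SE 0.25, and -0.45 without non-acupoint mouse 1). Scarna13 had 7.69 and 7.42 in non-acupoint mice, against 8.31 and 7.99 in MPTP mice (-0.60, SE 0.26). Snora41, in the translation factor gene Eef1b2, Snora73a, Snord8 and Snora62, in Rpsa, were lower without overlap by 0.34, 0.24, 0.27 and 0.22 log2 units. Without non-acupoint mouse 2 Snord8 stood at -0.08 and Snora62 at -0.05. Gas5 probe set 10351037 had 8.28 and 8.01 in non-acupoint mice, against 7.40 and 7.85 in MPTP mice (0.52, SE 0.18, and 0.30 without MPTP mouse 1, less by over 1.5 times). The remaining host probe sets stood at -0.17 to 0.11, and of these Snhg5 and Snhg11 probe set 10478066 were lower without overlap, by 0.11 (SE 0.12) and 0.17 (SE 0.13).

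The direct comparison of needling sites, acupoint against non-acupoint, showed smaller differences. Of the 60 snoRNA probe sets 37 had a higher mean in acupoint mice, with a median of 0.06, where all probe sets had -0.02 and were higher in 44.8% of cases. At an unadjusted p under 0.05 there was 1 higher and 2 lower, against 1.46% and 2.13% of all probe sets, and limma called 0 (0%). Non-overlapping groups numbered 11 higher and 6 lower, against 14.8% and 22.4% of all probe sets.

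The higher one was Snora75, with 4.80 and 4.98 in acupoint mice and 4.59 and 4.45 in non-acupoint mice (0.37, SE 0.14, unadjusted p = 0.033, adjusted p = 0.96 by limma). The lower ones were Snord14e, in the chaperone gene Hspa8, with 6.65 and 6.19 in acupoint mice and 6.87 and 7.12 in non-acupoint mice (-0.57, SE 0.19), and Snord37, with 3.52 and 3.39 in acupoint mice and 3.91 and 3.92 in non-acupoint mice (-0.46, SE 0.19). Snord47 stood at 0.62 (SE 0.31), Snora16a at 0.39 (SE 0.18), Snord33 at 0.39 (SE 0.23), Snord22 at 0.24 (SE 0.13) and Snora41 at 0.23 (SE 0.12), all without overlap. Without non-acupoint mouse 2 Snora16a stood at 0.14. Without acupoint mouse 2 Snord14e stood at -0.34, and without non-acupoint mouse 1 Snord52 stood at -0.13. Snora31, Snora30 and Snord52 stood at -0.24, -0.19 and -0.20, also without overlap. The host median was 0.03, and Gas5 probe set 10351037 stood at 0.29 (SE 0.18).

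The comparisons of the needled groups with controls share the control arrays with MPTP against control. In acupoint mice 39 of the 60 snoRNA probe sets were below the controls, with a median of -0.07, and in non-acupoint mice 41, with a median of -0.11. All probe sets had medians of -0.02 and -0.01 and were lower in 55.8% and 51.6% of cases. At an unadjusted p under 0.05, 2 were higher and 3 lower in acupoint mice, against 0.785% and 1.52% of all probe sets. In non-acupoint mice 2 were higher and 2 lower, against 3.27% and 2.5%, and limma called 0 in both comparisons (0%). Non-overlapping groups numbered 8 higher and 14 lower in acupoint mice, against 12.4% and 20.7% of all probe sets, and 7 higher and 16 lower in non-acupoint mice, against 23.5% and 22.3%.

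Snord22 was above the controls in each needled group, by 0.63 (SE 0.13, unadjusted p = 0.0018, adjusted p = 1 by limma) in acupoint mice and by 0.39 (SE 0.13) in non-acupoint mice, with no overlap. Snora69, in Rpl39, was also above them, by 0.37 (SE 0.13) and 0.29 (SE 0.13). Snora74a, in Snhg4, stood at 0.46 (SE 0.25) in acupoint mice, and at 0.15 without acupoint mouse 2. Snord37 was above the controls in non-acupoint mice, by 0.63 (SE 0.19). On the lower side were Snord14e (-0.61, SE 0.19), Snord52 (-0.39, SE 0.15) and Snora31 (-0.33, SE 0.12) in acupoint mice, and Snora75 (-0.48, SE 0.14), Snora41 (-0.39, SE 0.12) and Snord8 (-0.34, SE 0.16) in non-acupoint mice. Leaving out 1 array moved several by over 1.5 times: Snord52 stood at -0.18 without control mouse 2, Snord14e at -0.38 without acupoint mouse 2, and Snord8 at -0.15 without non-acupoint mouse 2. Without control mouse 1 Snora69 stood at 0.24 in acupoint and 0.16 in non-acupoint mice. The hosts had medians of -0.16 and -0.11, and Gas5 probe set 10351037 stood at -0.21 (SE 0.18) in acupoint mice and at -0.49 (SE 0.18) in non-acupoint mice.

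Taking the mean of the 3 MPTP-treated groups against the controls, 45 of the 60 snoRNA probe sets were lower, with a median of -0.11, where all probe sets had a median close to 0 and were lower in 51.3% of cases. By class, 25 of 33 box C/D, 17 of 23 box H/ACA and 3 of 4 Cajal body probe sets were lower. Non-overlapping groups numbered 1 higher and 3 lower, against 3.38% and 3.49% of all probe sets. The higher one was Snord37 (0.44, SE 0.15), with 3.39 to 4.10 over the 6 treated mice and 3.26 and 3.30 in controls. The lower ones were both probe sets of Scarna17 (-0.61, SE 0.21), with 8.78 to 9.90 in treated mice and 10.10 and 10.04 in controls, and Snord55 (-0.18, SE 0.10). The changes without MPTP mouse 1 were 0.34 for Snord37, -0.52 for Scarna17 and -0.23 for Snord55. Limma called 0 probe sets (0%), 1 without MPTP mouse 1 and 6 without MPTP mouse 2, none of them a member, with 3 snoRNA probe sets higher and 6 lower at an unadjusted p under 0.05, against 1.7% and 1.57%.

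The spread between the mice of a group was wider for these RNAs than over the whole array. The median absolute difference between the 2 mice was 0.18 in acupoint, 0.23 in non-acupoint, 0.25 in MPTP and 0.14 in control mice over the 60 snoRNA probe sets. Over all probe sets it was 0.14, 0.14, 0.20 and 0.11 in the same groups. Box C/D probe sets differed by 0.29 between the MPTP mice and box H/ACA by 0.16 at the median. Among the 4 groups and all members, the widest gap was that of Snora44 between the acupoint mice, at 1.86. Of the 60, 37 exceeded the intensity mark of 5.25, as did 6 of the 7 host probe sets. The probe sets of Scarna17, Snora30 and Snord118 came in pairs with identical values, and with each pair counted once 38 of 57 snoRNA probe sets were lower in MPTP mice, with a median of -0.15.

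Snord118, the member outside any other gene, had 3.12 and 3.35 in MPTP mice, against 3.38 and 3.38 in controls (-0.15, SE 0.15). The means of some members held by 1 host lay in different directions in MPTP against control. Snord42a and Snord42b, both in Rpl23a, stood at -0.24 (SE 0.19) and 0.25 (SE 0.23). Snord49a and Snord49b, both in 2410006H16Rik, stood at 0.20 (SE 0.17) and -0.96 (SE 0.38), and Snord95 and Snord96a, both in the ribosomal scaffold gene Rack1, at -0.36 (SE 0.22) and 0.14 (SE 0.21). Snord87, whose gene lies within Snhg6 and Mcmdc2, stood at -0.12 (SE 0.19). The 3 pairs had means on opposite sides of the control, as had the pair in Snhg12. Snord42b stood at -0.06 without MPTP mouse 1, on the side of Snord42a, and Snord87 at 0.13, while Snord49a turned to -0.01 without control mouse 1.

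Other pairs lay on the same side. Snord33 and Snord35a, both in Rpl13a, stood at -0.51 (SE 0.23, and -0.19 without MPTP mouse 1) and -0.10 (SE 0.18), and Snord15a and Snord15b, both in Rps3, at -0.20 (SE 0.19) and -0.25 (SE 0.18). Snord15a turned to 0.01 without control mouse 2, and Snord15b stood at -0.05 without MPTP mouse 2. Snord73a and Snord73b, both in Rps3a1, stood at -0.29 (SE 0.19) and -0.33 (SE 0.19, and -0.10 without MPTP mouse 1). Among the box H/ACA members of ribosomal protein genes, Snora52, in Rplp2, stood at -0.32 (SE 0.15) and Snora33, in Rps12, at -0.24 (SE 0.18), both without overlap. Snora3, in Rpl27a, Snora7a, in Rpl32, Snora62, in Rpsa, and Snora70, in Rpl10, stood between -0.11 and 0.04 with overlapping groups. None of the members in this paragraph had an unadjusted p under 0.05 in that comparison.

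The proteins that work with these RNAs were measured on the same arrays. Of 9 measured core proteins of the snoRNA particles, 6 were lower in MPTP mice, with a median of -0.06 and 2 lower at an unadjusted p under 0.05, where 46% of all probe sets were lower and 1.84% lower at that p. These were Gar1, a core protein of box H/ACA particles, with means of 8.267 in MPTP mice and 8.652 in controls (-0.39, SE 0.11), and Fbl, the methyltransferase fibrillarin, with 7.003 in MPTP mice and 7.351 in controls (-0.35, SE 0.11). Nop58, the partner of Nop56 in box C/D particles, stood at -0.34 (SE 0.21), and Dkc1, the pseudouridine synthase dyskerin, at 0.10 (SE 0.14). None passed the adjusted threshold (adjusted p = 0.96 by limma for Gar1 and Fbl), and in the needled groups against MPTP 0 of the 9 had an unadjusted p under 0.05.

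In the other lists of MPTP against control, the 17 assembly and trafficking factors had a median of 0.03 and the 36 genes of RNA polymerase I and ribosomal RNA processing 0.01, with 0 at an unadjusted p under 0.05 in either. The 12 measured factors of nonsense-mediated decay, the pathway that degrades the Gas5 transcript, had a median of 0.02, and 17 protein-coding hosts had 0.0039. The 5 measured noncoding hosts outside the rule all had lower means, with a median of -0.20, among them Snhg15 (-0.34, SE 0.23) and Snhg16 (-0.20, SE 0.12), and 0 had an unadjusted p under 0.05. Of 4 measured transcripts of imprinted loci that hold snoRNA clusters, all had lower means and 1 an unadjusted p under 0.05, against the same 46% and 1.84% of all probe sets, with Magel2 at -0.35 (SE 0.11) and Meg3 at -0.35 (SE 0.24).

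Cytosolic ribosomal protein genes, the hosts of many members, had a median of -0.03 over 60 genes in MPTP against control, with 37 lower and 0 at an unadjusted p under 0.05. Between needling sites 55 of 60 were higher in acupoint than in non-acupoint mice, with a median of 0.10 and 4 higher at an unadjusted p under 0.05. Of all probe sets 44.8% were higher and 1.46% higher at that p, with a median of -0.02. Against the controls, 49 of the 60 genes were lower in non-acupoint mice (median -0.11) and 34 in acupoint mice (median -0.02). All probe sets were lower in 51.6% and 55.8% of cases there. By group means the acupoint mice stood near the controls and the non-acupoint mice below them. For Rpl10 non-acupoint mice 1 and 2 stood at 0.02 and -0.17 relative to the controls, and for Rpl23a at -0.20 and -0.095. Array medians were 6.08 and 6.02 in non-acupoint, 6.06 and 6.05 in acupoint and 6.12 and 6.07 in control mice. The 60 genes are not independent measurements, and values without single arrays are not given for them. Choroid plexus markers were high in both non-acupoint mice and acupoint mouse 1, and their part was not tested. Rpl34 had means of 7.79 in acupoint mice and 7.45 in non-acupoint mice (0.34, SE 0.10, adjusted p = 0.96 by limma). The 24 snoRNA probe sets that lie in a ribosomal protein gene had a median of 0.03 in this comparison, with 13 higher and 11 lower.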

How the data were processed

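Striatal RNA of 8 mice went onto 8 Affymetrix arrays, starting from 300 ng of total RNA prepared on silica columns, per the labels' protocols. The deposited log2 values were made by the authors with Affymetrix Expression Console and RMA, per the submitters' processing notes, with no version given. Settings and annotation build are not given in the sources used here. RMA corrects background, equalises the distribution of the arrays and summarises probes. Levels of different probe sets are not comparable as amounts of RNA.

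Probe sets were named through the platform annotation, 21789 of 35557 with exactly 1 symbol. Host genes were assigned by span in the RefSeq table (GRCm38.p6), which carries no strand. All 8 arrays were fitted together, 1 mean per group, by lmFit and eBayes of limma (version 3.58.1, R version 4.3.3), with 4 residual and 3.35 prior degrees of freedom. No filter was applied, and p-values were adjusted (Benjamini-Hochberg) over all 21789 at 0.05. The labels name the replicates as separate mice. The fit was tested on simulated data. These followed the model's own spread and held no tissue differences between arrays, so they cannot test the fit against such differences.

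The named members are the host probe sets, the snoRNAs in each comparison with the smallest unadjusted p among non-overlapping groups (up to 6 in each direction in the 4 main comparisons, 3 in the others), snoRNAs that lie in a named host, Snord116 as a group, and up to 3 genes of each list. Other members were named for a property stated beside them, after their values were seen. The members and lists were chosen with earlier results of these data known. Alternatives were an intensity filter, all probe sets, trend and robust shrinkage, arrays centred on their median, quantile normalisation, a replicate block, separate fits, each array left out, and, added later, identical probe sets counted once.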

Additional observations from a re-analysis of the deposited data

How the results depend on the processing

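With 2 arrays in each group, a call rests on 1 array's agreement with 1 other, and short probe sets with little signal are the least certain. The count of 0 called probe sets held in every comparison under the intensity filter, trend or robust shrinkage, centring, quantile normalisation and the replicate block. With all probe sets of the table tested, 1 was called in MPTP against control, 1 in non-acupoint against control and 2 in all MPTP-treated against control. With only the arrays of the groups compared, 2 were called in non-acupoint against control. None of these was a member. The snoRNA median moved to -0.1965 in MPTP against control and to -0.01257 in acupoint against control with the filter, and to -0.06317 in non-acupoint against control with the arrays centred. Snhg5 turned to 0.008485 in MPTP against control when the arrays were centred, and Gas5 probe set 10351026 turned to 0.01514 (centred) and 0.001009 (quantile again) in non-acupoint against MPTP; the cause was not tested. Of 710 values of single probe sets under settings that kept all arrays, 707 kept their direction and side of the threshold. Among these settings only centring and quantile normalisation can alter the log2 change of a single probe set. The directions kept under the others were therefore fixed in advance, and the count is no measure of robustness. Identical probe sets counted once, an alternative chosen after seeing the data, gave -0.15 for the snoRNA median in MPTP against control.

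Leaving out 1 array each time, with the lone array of that group assumed to vary like the others, the called probe sets ranged from 0 to 1102 in MPTP against control, from 0 to 969 in acupoint against MPTP, from 0 to 410 in non-acupoint against MPTP and from 0 to 6 in all MPTP-treated against control. Called members ranged from 0 to 7, from 0 to 7 and from 0 to 4 in the first 3 of these. The highest counts came without MPTP mouse 2. The snoRNA median ranged from 0.03112 to 0.1106 in acupoint against MPTP, from 0.01288 to 0.1137 in non-acupoint against MPTP, and from -0.1336 to -0.03009 in non-acupoint against control. The host median ranged from -0.1346 to 0.03501 in MPTP against control, from -0.1661 to 0.03644 in acupoint against MPTP, from -0.09822 to -0.01899 in non-acupoint against MPTP, from -0.08974 to 0.1451 in acupoint against non-acupoint, from -0.2613 to -0.06106 in acupoint against control and from -0.1692 to -0.03225 in all MPTP-treated against control.

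Among single probe sets, several changed direction when an array was left out, among them Snord42b, Snord87 and Scarna8 in MPTP against control and host probe sets near 0. In MPTP against control, Gas5 10351035 ranged from -0.6366 to 0.02761, Gas5 10351039 from -0.2081 to 0.08699, Snhg11 10478066 from -0.1609 to 0.09209, Snhg11 10478073 from -0.08717 to 0.1139 and Snhg5 from -0.05339 to 0.04434. In acupoint against MPTP, Gas5 10351035 ranged from -0.6757 to 0.1097, Gas5 10351039 from -0.2439 to 0.6167, Snhg11 10478073 from -0.191 to 0.01003 and Snhg5 from -0.1984 to 0.03644. In non-acupoint against MPTP, Gas5 10351026 ranged from -0.08275 to 0.04472, Gas5 10351035 from -0.4826 to 0.1815, Gas5 10351039 from -0.035 to 0.2564 and Snhg11 10478073 from -0.1988 to 0.00231. In acupoint against non-acupoint, Gas5 10351026 ranged from -0.1471 to 0.01526, Gas5 10351035 from -0.5251 to 0.2602, Gas5 10351039 from -0.3546 to 0.506, Snhg11 10478073 from -0.02254 to 0.03798 and Snhg5 from -0.08974 to 0.1451. Gas5 10351039 ranged from -0.3044 to 0.5561 in acupoint against control, where Snhg5 ranged from -0.2029 to 0.03192, from -0.09743 to 0.1977 in non-acupoint against control, and from -0.1091 to 0.186 in all MPTP-treated against control.

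The differences between mouse 1 and mouse 2 correlated at -0.40 to 0.32 between groups over the probe sets. The tissue differences between arrays enter these correlations too, so they cannot decide whether the numbers mark a pairing. A fit with the number as a replicate block called 0 probe sets in every comparison and had 715 at an unadjusted p under 0.05 in MPTP against control, 16 of them members.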

Other observations

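Snord116, an imprinted cluster of box C/D snoRNAs with many near-identical copies on the paternal chromosome, was read by 24 probe sets that carry several symbols and so stood outside the members. Their array medians were 10.98 and 10.58 in acupoint mice, 10.64 and 10.70 in non-acupoint mice, 10.47 and 9.98 in MPTP mice, and 10.52 and 10.79 in controls. MPTP mouse 2, rather than mouse 1, held the lowest value. In acupoint against MPTP the 24 probe sets had a median change of 0.55, and all 24 had an unadjusted p under 0.05 with 0 under the adjusted threshold by limma. In that fit, 1721 of all 35557 probe sets had an unadjusted p under 0.05. In MPTP against control the median was -0.43, with 2 of the 24 at an unadjusted p under 0.05, against 1582 of the 35557. Without MPTP mouse 2 these medians were 0.31 and -0.18, and without acupoint mouse 1 the first was 0.36. Against the controls, the medians were 0.13 in acupoint and 0.01 in non-acupoint mice, with 0 of the 24 at that p in either. The copies share sequence, so the 24 are close to 1 measurement repeated, and which copies contributed was not tested.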
